A study of Mus musculus with 39 samples.

Results

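The kidneys of old Prf1-/- mice given ABT-737 were compared with the kidneys of old Prf1-/- mice given vehicle. The comparison took the 6 libraries that the sample titles name as kidney of treated old mice, 3 per group, out of 39 libraries in the series, and covered the 11123 genes that passed edgeR's expression filter out of 24537 rows in the table. The mice of every group, vehicle controls included, were C57BL/6 males without perforin, the pore-forming protein through which cytotoxic lymphocytes deliver granzymes into target cells, so no perforin-competent group enters here. ABT-737 blocks BCL-2, BCL-XL and BCL-W, proteins that protect cells from apoptosis, and is studied here as a drug that removes senescent cells. It was injected into the peritoneum at 25 mg/kg, or a DMSO-based vehicle was injected, on 2 consecutive days a month for 2 months from 18 months of age, and tissue was taken at 20 months. Untreated Prf1-/- mice aged 3 months gave 4 further libraries. These shared the estimate of the spread in the fit, and their levels are given as a description without a test. The drug label reads ABT-738 and ABT-739 for ABT-737 replicates 4 and 5, while titles and methods name ABT-737 for them, and they were kept in that group.

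RNA came from whole perfused kidney and was read at the 3′ end of polyadenylated transcripts by a bulk form of MARS-seq. In such RNA, fewer cells of a type and less RNA per cell cannot be told apart. The libraries held 1983294 to 2107780 counts with ABT-737, 1431814 to 2584882 with vehicle and 2218423 to 3513311 in young mice. Levels are given as CPM (counts scaled to a common library size) after TMM scaling, always in the order of replicates 3, 4 and 5. Prf1 itself had 3, 1 and 1 counts with ABT-737, 3 to 4 with vehicle and 1 to 11 in young mice, and whether the reads lie in the deleted part of the gene is not given in the sources used here. Defining markers of kidney epithelium were present in each of the 6 libraries, at 4958 to 7407 CPM for Slc34a1 of the proximal tubule and 3232 to 4842 CPM for Umod of the thick ascending limb. Aqp2 of the collecting duct ran from 205 to 641 CPM.

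Libraries of one group were not alike. The first principal component of the 6 libraries, with 42.2% of the variance, put ABT-737 replicate 4 at -40.6 and vehicle replicate 4 at 44.5, and the other ABT-737 libraries at -15.3 and -8.1, with vehicle replicate 3 between the groups at -0.9 and vehicle replicate 5 at 20.3. ABT-737 replicate 3 stood apart on the second component, at 37.0. Pairs of libraries of a group had a chi-square per gene of 8.87 to 14.1 with ABT-737 and 5.12 to 9.44 with vehicle. It was 3.13 to 5.16 in young mice. The young libraries, which share the estimate of the spread, can therefore lower it below that of the compared groups. Counts of called genes therefore follow with the libraries left out in turn, and 2 libraries recur below. Vehicle replicate 3 was the highest library for interferon-inducible GTPases and MHC genes, and vehicle replicate 4 was the highest for B cell, matrix and injury genes.

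Interferons are cytokines that cells release on infection or damage. Type I interferons and interferon-gamma bind receptors whose kinases activate STAT proteins, and these, with IRF factors, switch on target genes for antiviral defence and antigen presentation. In kidney, MHC class I is found on most cells, while MHC class II, T cell receptors and complement component C1q mark resident and infiltrating leukocytes, and tubule cells can take on MHC class II in inflamed tissue. Many interferon targets carry the interferon-stimulated response element (ISRE), read by complexes with IRF factors, or the gamma-activated site (GAS), which interferon-gamma signalling acts through.

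Promoter sequences of genes that were lower with ABT-737, with Tap1 and Psmb9 sharing a sequence, are shown because they carry, or lack, these letters. Each sequence is the GRCm38.p6 reference from RefSeq, 5′ to 3′ on the gene's own strand, and ends at the base before the start annotated there. For Bst2 that start lies upstream of the start in the annotation of the counts (71537437). Capitals mark matches to the ISRE core (GAAA, any 2 bases, GAAA) or the GAS core (TTC, any 3 bases, GAA), searched on both strands, with overlapping matches joined. Isg15 (chr4:156200819-156201018, minus strand) has a run of ISRE cores, Bst2 (chr8:71537473-71537672, minus strand) has a GAS core running into ISRE cores, Ifit3 (chr19:34583329-34583528, plus strand) has 2 ISRE cores in the opposite orientation, Igtp (chr11:58199356-58199555, plus strand) has one of each and B2m (chr2:122147487-122147686, plus strand) has a single ISRE core. Tap1 and Psmb9 start back to back, and the 225 bases between their starts (chr17:34187331-34187555, plus strand) hold neither.
Isg15: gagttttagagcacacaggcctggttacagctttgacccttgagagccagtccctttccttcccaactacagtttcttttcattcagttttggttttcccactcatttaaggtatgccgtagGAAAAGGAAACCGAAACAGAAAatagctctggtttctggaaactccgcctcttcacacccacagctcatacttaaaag
Bst2: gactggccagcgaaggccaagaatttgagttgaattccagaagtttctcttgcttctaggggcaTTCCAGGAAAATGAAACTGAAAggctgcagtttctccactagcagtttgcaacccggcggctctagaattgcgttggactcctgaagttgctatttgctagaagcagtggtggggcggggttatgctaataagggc
Ifit3: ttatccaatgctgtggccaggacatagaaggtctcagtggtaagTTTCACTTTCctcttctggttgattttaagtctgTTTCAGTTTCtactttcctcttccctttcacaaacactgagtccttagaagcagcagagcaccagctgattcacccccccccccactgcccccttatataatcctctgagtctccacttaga
Igtp: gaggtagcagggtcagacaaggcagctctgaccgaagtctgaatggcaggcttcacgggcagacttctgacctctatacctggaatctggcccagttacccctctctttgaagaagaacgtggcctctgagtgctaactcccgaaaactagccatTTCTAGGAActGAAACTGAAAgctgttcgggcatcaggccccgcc
B2m: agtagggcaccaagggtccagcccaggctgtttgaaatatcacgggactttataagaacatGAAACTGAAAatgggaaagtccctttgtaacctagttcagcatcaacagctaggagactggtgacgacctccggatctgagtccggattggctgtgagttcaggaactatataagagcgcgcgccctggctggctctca
Tap1-Psmb9: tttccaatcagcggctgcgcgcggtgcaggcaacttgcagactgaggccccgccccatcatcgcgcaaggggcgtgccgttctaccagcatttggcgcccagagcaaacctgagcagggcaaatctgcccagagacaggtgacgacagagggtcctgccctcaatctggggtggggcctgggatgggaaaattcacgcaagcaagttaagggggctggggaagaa
Over windows of 300 bases (250 before to 50 after the start), the ISRE core was found in 27 of the 112 windows of genes lower with ABT-737 (24.1%), in 3.02% of the windows of all genes tested and in 3.44% of all 32851 windows. Of the 135 genes lower with ABT-737, 95 were in the RefSeq promoter table, and 25 of them had the core. Of the 15 genes higher with ABT-737, 10 were in the table with 13 windows, and 0 windows had it. The GAS core was in 15 of the 112 windows (13.4%), against 6.55% for genes tested and 8.3% for all windows. A match describes letters in the window, and the absence of one says only that they are not there.

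Of the 11123 genes, 150 (1.35%) were called, with a Benjamini-Hochberg adjusted p under 0.05 in edgeR's quasi-likelihood test, 15 higher (0.135%) and 135 lower (1.21%) with ABT-737. The absolute log2 fold changes of called genes ran from 0.61 to 3.76 with a median of 1.52, while the median over all genes was 0.01, with 5692 higher and 5431 lower. In 149 of the 150 the 3 ABT-737 and 3 vehicle libraries did not overlap, against 15.2% of all genes tested. Calling picks genes whose groups separate, so this lack of overlap among the 150 was largely fixed in advance. The exception was BC089597, at 124, 66.3 and 97.1 CPM with ABT-737 and 107, 269.5 and 369.5 CPM with vehicle, which lost its call in 9 of 10 single-library omissions. Of the 150, 99 belonged to at least 1 of 48 gene lists written from general knowledge for immune, kidney, metabolic and stress functions, and 88 to an immune list. The lists were written with earlier results of these data known, so these counts are no independent support. The lists named 1307 genes, of which 992 passed the expression filter. The filter keeps a gene that only 1 group expresses. A gene near the floor in ABT-737 and young libraries could pass through vehicle alone, which sets its direction in advance. Of the 135 lower genes 92 were listed, and of the 15 higher genes 7. Without ABT-737 replicate 4 the count was 57, without ABT-737 replicate 3 it was 94, without vehicle replicate 4 it was 92 and without vehicle replicate 3 it was 471, of which 136 were among the 150. With the 6 libraries of old mice alone, 69 genes were called, 1 higher and 68 lower, each of them among the 150. Of the 79 called genes named in this text, 31 lost their call in that fit.

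**Figure D1:**
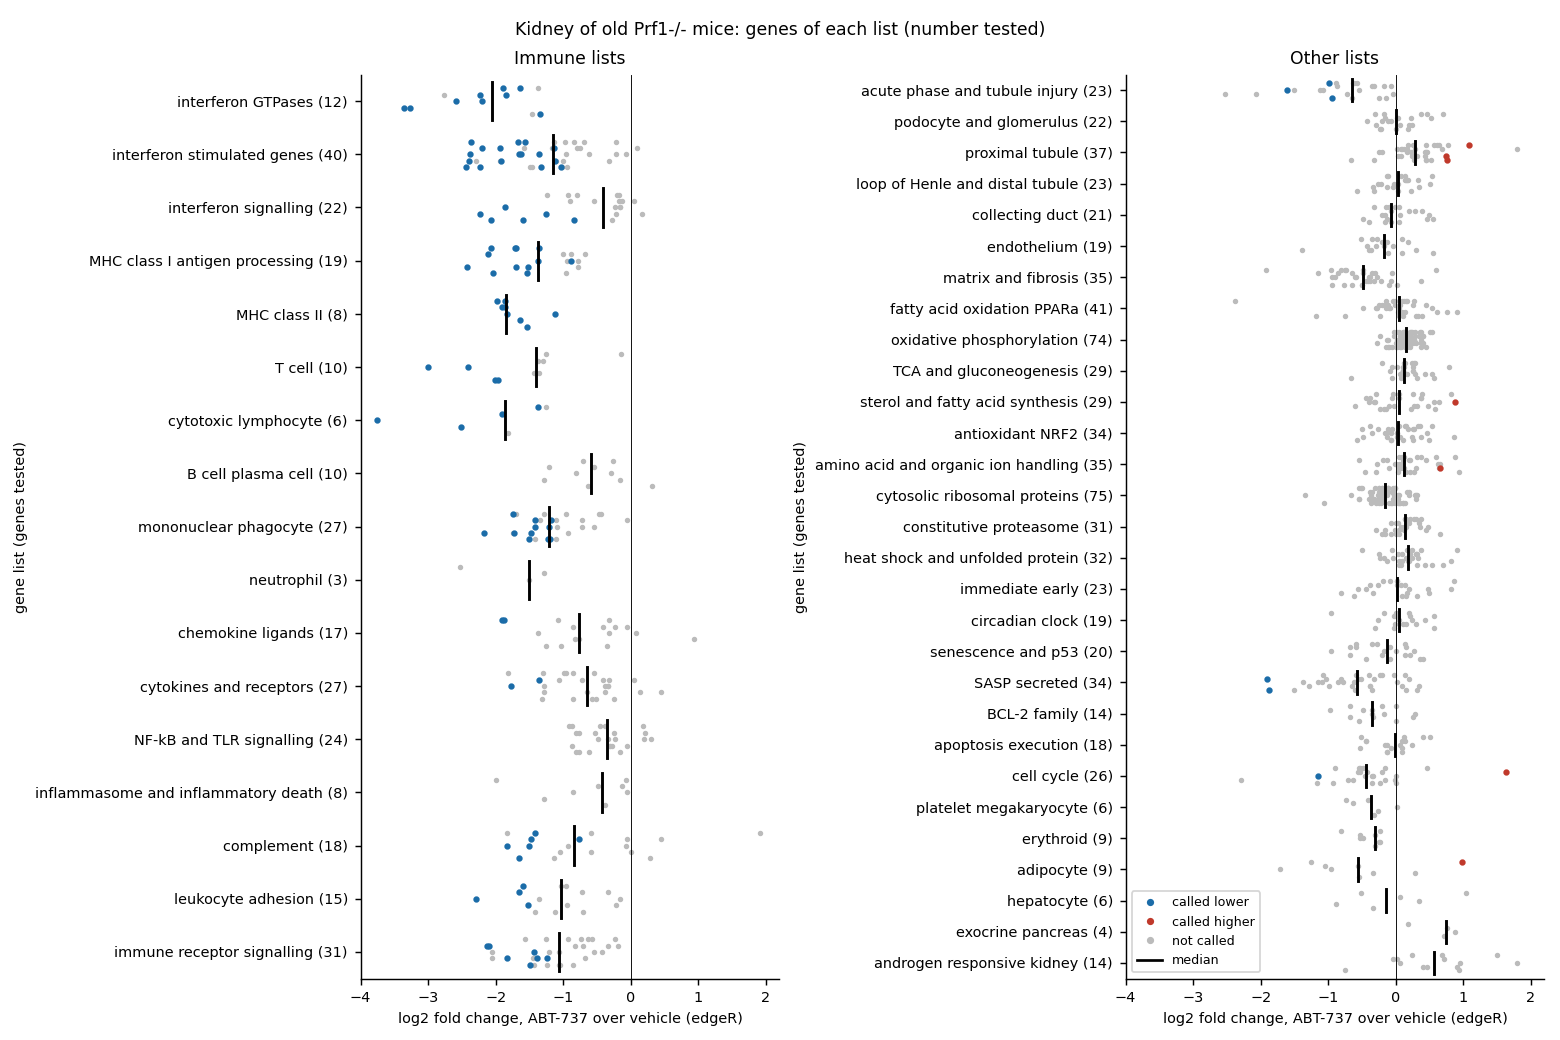
Each point is 1 tested gene of a list, at its log2 fold change (ABT-737 over vehicle, edgeR), for the 46 lists with at least 3 tested genes; the number tested follows each name, blue points were called lower, red points called higher, grey points not called, and the black bar is the list's median. The medians of the interferon GTPases (-2.05), MHC class II (-1.85) and cytotoxic lymphocytes (-1.87, with 6 of 22 listed genes tested) lie farthest to the left, and those of kidney segments and energy metabolism lie near 0.

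Of 40 tested interferon-stimulated genes, 17 were called lower and 0 higher, 39 of 40 lay below 0, and the median log2 fold change was -1.15. Isg15, a ubiquitin-like protein that interferon induces and that is joined to other proteins (chr4:156199424-156200818, minus strand), stood at 8.73, 13.4 and 15.6 CPM with ABT-737 and 69.5, 60.2 and 46.95 CPM with vehicle. The 2 groups did not overlap, and vehicle was 4.68-fold higher (log2 fold change -2.23, SE 0.24, adjusted p = 0.000191). Young kidneys held 7.61 to 11.6 CPM. Bst2 encodes tetherin, which holds budding viruses to the cell membrane (chr8:71534262-71537437, minus strand), and it stood at 25.7, 54.9 and 58.1 CPM with ABT-737 and 284, 219 and 138 CPM with vehicle. It fell 4.62-fold (log2 fold change -2.21, SE 0.27, adjusted p = 0.000504), with the highest level in vehicle replicate 3. Parp14, a mono-ADP-ribosyltransferase, fell 3.78-fold, from 70.3, 45.1 and 43.2 to 13.4, 16.3 and 12.5 CPM (adjusted p = 0.000504). Ifit3, a member of the family that binds viral RNA, fell 3.85-fold, from 85.99, 97.1 and 71.4 to 15.9, 17.3 and 32.7 CPM (adjusted p = 0.00138); reads could be shared with its near copy Ifit3b, which was also called lower. The summed level of the list, over all its genes in the table, was 746 to 1061 CPM with ABT-737 and 1782 to 2602 CPM with vehicle, and 739.8 to 851 CPM in young mice.

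The GTPases of the guanylate-binding (GBP) and immunity-related (IRG) families, which interferon-gamma induces and which attack the vacuoles of intracellular pathogens, had the lowest median of the interferon lists, at -2.05. Of 21 listed 12 were tested, 9 were called lower, and in 12 of 12 the groups did not overlap. Igtp, also called Irgm3 (chr11:58199556-58207592, plus strand), stood at 31.9, 40.1 and 57.1 CPM with ABT-737 and 501, 114 and 153 CPM with vehicle. Vehicle replicate 3 was far above the other vehicle libraries here, and all 3 vehicle libraries were above the ABT-737 libraries (6.003-fold, log2 fold change -2.59, SE 0.42, adjusted p = 0.0044). The same library led for Iigp1, an IRG GTPase at 3.08, 4.45 and 5.19 CPM with ABT-737 and 96.6, 11.6 and 10.3 CPM with vehicle (log2 fold change -3.27, adjusted p = 0.0403). Irgm2, a regulatory IRG protein, stood at 24.1, 25.2 and 34.3 CPM with ABT-737 and 177, 56.8 and 72.8 CPM with vehicle (adjusted p = 0.0067). Without vehicle replicate 3 the log2 fold change was -1.64 for Igtp and -1.22 for Irgm2, both still called. Gbp4 stood at 2.57, 2.97 and 2.60 CPM with ABT-737 and 17.3, 6.84 and 12.7 CPM with vehicle (adjusted p = 0.0106), also with vehicle replicate 3 highest. Gbp5, which promotes inflammasome assembly, had no more than 3 counts in any ABT-737 library and 7.07, 5.47 and 9.39 CPM with vehicle, so it was at least 4.78-fold lower, counted against 3 counts per library (adjusted p = 0.00228). Young kidneys held 1.29 to 2.31 CPM, so Gbp5 passed the filter through vehicle alone. Gbp4 and Iigp1, at 3.43 to 6.46 and 3.00 to 8.77 CPM in young kidneys, also needed vehicle libraries to pass. The median of the list over single-library omissions ran from -2.49 (without vehicle replicate 4) to -1.29 (without vehicle replicate 3). Single omissions ended the calls of Gbp4 without ABT-737 replicate 4 (-2.28) and Iigp1 without ABT-737 replicates 3, 4 or 5, vehicle replicate 3 or young replicates 1, 2, 3 or 4 (-3.44 to -1.35), with the log2 fold change in parentheses. Reads of GBP and IRG genes may be shared between near-identical family members.

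Of 22 tested genes of the interferon pathway itself, 6 were called lower, and the median was -0.42, or -0.15 without vehicle replicate 4. Among them were Irf7, Irf1, Nlrc5, Stat2 and Irf8, which are transcription factors or coactivators that interferon also induces. Irf7, the main driver of type I interferon amplification (chr7:141263183-141266424, minus strand), stood at 30.8, 33.7 and 51.4 CPM with ABT-737 and 196, 248 and 101 CPM with vehicle. It was 4.69-fold lower (log2 fold change -2.23, SE 0.27, adjusted p = 0.000504), and its lowest vehicle library lay above its highest ABT-737 library. Irf1 fell from 140.2, 78.7 and 86.9 to 24.7, 32.2 and 44.6 CPM (adjusted p = 0.00308), and Nlrc5, the transactivator of MHC class I genes, from 29.1, 15.05 and 16.9 to 3.08, 6.43 and 5.19 CPM (adjusted p = 0.0057). Young levels of Irf7 were 20.6 to 26.3 CPM. The ISRE core lay in 8 of 9 windows of the GTPase list (8 of 12 genes in the promoter table), 17 of 35 windows of the interferon-stimulated genes (29 of 40 genes) and 3 of 22 windows of the pathway genes (19 of 22 genes).

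MHC class I antigen presentation displays peptides cut by the proteasome to CD8 T cells. All 19 tested genes of this list were below 0, 12 were called lower and the median was -1.38. The heavy chain H2-K1 (chr17:33996012-34000333, minus strand) stood at 469, 416 and 567 CPM with ABT-737 and 2186, 1389 and 1158 CPM with vehicle, a 3.26-fold difference (log2 fold change -1.71, SE 0.21, adjusted p = 0.000504). H2-D1 fell from 1901, 1403 and 1251 to 495, 578 and 684 CPM (adjusted p = 0.000734), and the shared light chain B2m (chr2:122147687-122153082, plus strand) from 1844, 1062 and 1005 to 305, 461 and 443 CPM (adjusted p = 0.00127). In each of these 3 genes vehicle replicate 3 was highest, and each vehicle library exceeded each ABT-737 library. H2-Q7 and H2-Q9 had identical counts in every library, so they count as 1 measurement, at 41.6, 35.1 and 44.6 CPM with ABT-737 and 145, 131 and 122 CPM with vehicle (log2 fold change -1.71, SE 0.16, adjusted p = 6.25e-05). Tap1, a subunit of the pump that carries peptides into the endoplasmic reticulum (chr17:34187556-34197225, plus strand), fell 4.10-fold, from 158, 107 and 108 to 25.2, 28.2 and 37.9 CPM (log2 fold change -2.04, SE 0.20, adjusted p = 6.34e-05).

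The inducible and the constitutive proteasome differed in their calls. Psmb8, Psmb9 and Psmb10 are the catalytic subunits that interferon induces to form the immunoproteasome, and all 3 were called lower. Psmb8 fell from 389, 220.3 and 184 to 53.4, 46.5 and 88.8 CPM (adjusted p = 0.000819), and Psmb9 from 102, 64.3 and 41.8 to 17.5, 8.91 and 22.3 CPM (adjusted p = 0.00365). Of 31 tested genes of the constitutive proteasome 0 were called, 24 lay above 0 and the median was 0.13. Psmb6, the subunit that Psmb9 replaces, stood at 504, 451 and 564 CPM with ABT-737 and 433, 467 and 503 CPM with vehicle (log2 fold change 0.12, adjusted p = 0.794). The difference between the subunits was not tested.

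MHC class II presents peptides to CD4 T cells. All 8 tested genes were called lower, with a median of -1.85 and a summed level of 3334 to 4783 CPM with ABT-737 and 9020.3 to 16528 CPM with vehicle. H2-Eb1, a class II beta chain (chr17:34305867-34316674, plus strand), stood at 444, 442 and 612 CPM with ABT-737 and 2359, 1593 and 1386 CPM with vehicle, a 3.56-fold fall (log2 fold change -1.83, SE 0.20, adjusted p = 0.000191). Cd74, the invariant chain that guards the peptide groove, stood at 596, 380.1 and 597 CPM with ABT-737 and 2514, 1576 and 1622 CPM with vehicle (log2 fold change -1.86, SE 0.23, adjusted p = 0.000504). The peptide-loading subunits H2-DMa and H2-DMb1 fell to 49.3, 51.96 and 68.01 and 46.8, 23.3 and 53.99 CPM from 306, 191 and 169 and 199.9, 114 and 136 CPM (adjusted p = 0.000337 and 0.00182). Ciita, the master transactivator of class II genes, fell from 72.2, 38.99 and 29.1 to 14.4, 10.4 and 12.98 CPM (log2 fold change -1.91, SE 0.32, adjusted p = 0.00498). Vehicle replicate 3 led in each of these 5 genes, and without it the median of the list was -1.50. The summed level in young mice was 1887 to 2675 CPM. H2-Ea-ps and H2-DMb2 had 0 counts in the 6 libraries.

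**Figure D2:**
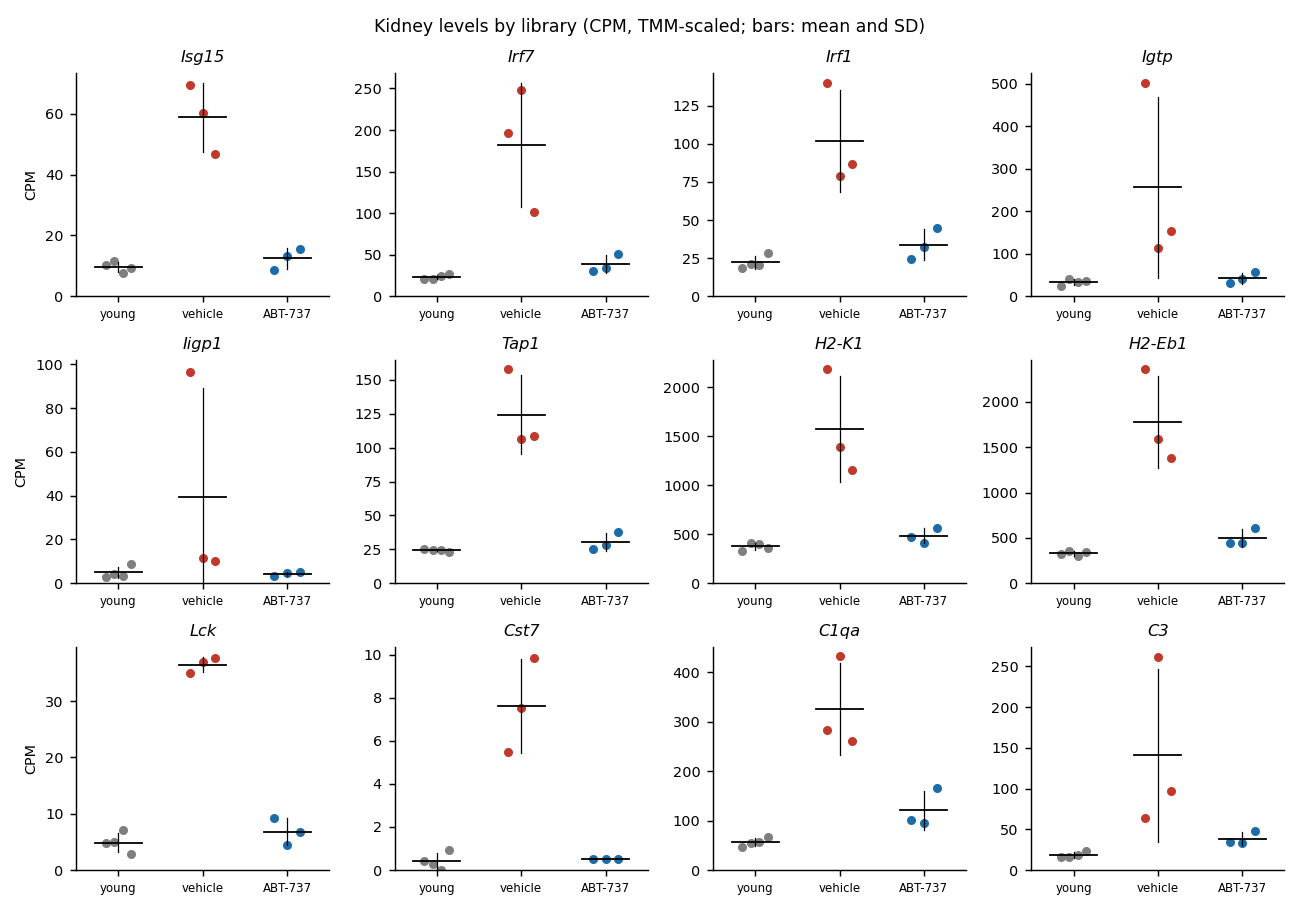
Levels in CPM (linear axes from 0) of 12 genes in each kidney library of young mice (grey), old mice given vehicle (red) and old mice given ABT-737 (blue), replicates from left to right; the horizontal bar is the mean and the vertical bar the SD. In each panel the 3 vehicle points lie above the 3 ABT-737 points, with vehicle replicate 3 far above the other vehicle points for Igtp (501 CPM) and Iigp1 (96.6 CPM), and replicate 4 for C3 (261 CPM).

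Some T cell and cytotoxic lymphocyte genes were called lower, at low levels. Of 30 listed T cell genes 10 were tested, 4 were called lower and 10 of 10 lay below 0. The summed level of the list was 63.3 to 109 CPM with ABT-737 and 177 to 298 CPM with vehicle. Lck, the kinase that starts T cell receptor signalling (chr4:129548344-129573641, minus strand), was steady within vehicle, at 9.25, 4.45 and 6.75 CPM with ABT-737 and 34.9, 36.9 and 37.6 CPM with vehicle (5.33-fold, log2 fold change -2.41, SE 0.28, adjusted p = 0.000397). Cd3d, a chain of the T cell receptor complex, stood at 1.03, 0.495 and 1.04 CPM with ABT-737 and 5.50, 6.84 and 9.39 CPM with vehicle, with no more than 3 counts in any ABT-737 library, so it was at least 4.74-fold lower (adjusted p = 0.00706). Young kidneys held 0.276 to 1.38 CPM, so Cd3d passed the filter through vehicle alone, which fixed its direction. Thy1 fell from 23.6, 34.9 and 52.1 to 11.8, 3.46 and 12.98 CPM (adjusted p = 0.0119). Cd8a, the co-receptor of cytotoxic T cells, fell from 11.8, 15.7 and 8.45 to 3.08, 1.48 and 4.15 CPM (adjusted p = 0.0192). With 1.93 to 4.29 CPM in young kidneys, Cd8a too passed the filter through vehicle alone, which fixed its direction. With a minimum of 10 counts in every library the median over the list's remaining members was -0.15. Single omissions ended the calls of Cd3d without ABT-737 replicate 4 (-2.74), Thy1 without ABT-737 replicate 4 or vehicle replicate 5 (-1.62 to -1.56) and Cd8a without ABT-737 replicates 3 or 4 or vehicle replicate 4 (-2.05 to -1.68).

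Of 22 listed cytotoxic lymphocyte genes 6 were tested and 4 were called lower, with a median of -1.87. The summed level was 76.7 to 152 CPM with ABT-737 and 243 to 482 CPM with vehicle. Ccl5, a chemokine that cytotoxic lymphocytes store, fell 3.76-fold, from 156, 359 and 271 to 52.9, 54.4 and 101 CPM (log2 fold change -1.91, SE 0.31, adjusted p = 0.00422). Cst7, the granule inhibitor cystatin F, had 1 count in each ABT-737 library against 5.50, 7.52 and 9.86 CPM with vehicle, so it was at least 4.99-fold lower (adjusted p = 0.00365). Young kidneys held 0 to 0.923 CPM, so Cst7 too passed the filter through vehicle alone. Nkg7, a granule membrane protein, stood at 14.9, 9.40 and 19.7 CPM with ABT-737 and 25.9, 47.2 and 43.2 CPM with vehicle (adjusted p = 0.0254). Ctsw, the lysosomal protease cathepsin W, stood at 3.60, 1.48 and 2.60 CPM with ABT-737 and 10.99, 12.3 and 21.1 CPM with vehicle (adjusted p = 0.00694). It also passed the filter through vehicle alone, with 0.585 to 2.57 CPM in young kidneys. Ctsw overlaps Fibp on the other strand, and whether strand was used in counting is not given in the sources used here. Omission of 1 library lost the calls of Nkg7 without ABT-737 replicates 3 or 4 or vehicle replicates 4 or 5 (-1.39 to -1.14) and Ctsw without ABT-737 replicate 4 (-2.24).

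B cell and plasma cell genes gave no call. Of 10 tested 0 were called, 9 lay below 0 and the median was -0.59. The summed level overlapped between groups at 435 to 506 CPM with ABT-737 and 403 to 612 CPM with vehicle. In young mice most of the sum (351 to 431 CPM) was Xbp1 (281 to 354 CPM), so the sum says little about B cells. The tested members with the highest counts were Xbp1, a plasma cell and secretory factor that tubules also express and the only member above 0 (0.32, adjusted p = 0.364), and the B cell adaptor Blnk (-0.27, adjusted p = 0.545). The list's median was 0.02 without vehicle replicate 4 and -1.09 without vehicle replicate 3. Pax5 had 0 counts in the 6 libraries, and Cd79a 0 to 1 count. Neutrophil genes were near the limit of detection: 3 were tested and 0 called, S100a8 had 0 to 4 counts, and Elane, Mmp8, Stfa1 and Stfa2 had 0.

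Of 27 tested genes of macrophages and other mononuclear phagocytes, 11 were called lower, 27 of 27 lay below 0, and the median was -1.22. The summed level was 600.04 to 908 CPM with ABT-737 and 1314 to 2122 CPM with vehicle, and 381 to 457 CPM in young mice. C1qa and C1qb, chains of the complement starter C1q that tissue macrophages make, stood at 101, 95.5 and 166 CPM with ABT-737 and 282, 432 and 262 CPM with vehicle for C1qa (log2 fold change -1.42, SE 0.23, adjusted p = 0.00365) and 91.4, 106 and 180.2 CPM with ABT-737 and 379.7, 426 and 251 CPM with vehicle for C1qb (log2 fold change -1.48, SE 0.27, adjusted p = 0.00916). In both, ABT-737 replicate 5 was the highest treated library and still below the lowest vehicle library. Laptm5, a lysosomal protein of leukocytes, fell from 113, 147 and 133 to 59.1, 56.4 and 56.6 CPM (adjusted p = 0.00178). Fcgr1, the high-affinity IgG receptor, fell 3.36-fold to 9.25, 6.43 and 7.27 CPM (adjusted p = 0.0057), and Aif1, the macrophage protein IBA1, 2.67-fold to 12.3, 14.8 and 23.9 CPM (adjusted p = 0.00879). Adgre1, the macrophage marker F4/80, was named after its values were seen, at 5.14, 6.93 and 3.63 CPM with ABT-737 and 17.7, 23.9 and 10.8 CPM with vehicle, and missed the threshold (adjusted p = 0.0869). Calls were lost for C1qb without ABT-737 replicate 4 (-1.37) and Aif1 without ABT-737 replicate 4 (-1.32).

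The complement list extended beyond macrophage C1q. Of 18 tested, 6 were called lower, C1qa, C1qb, C1qc, C2, C3 and C4b, and the median was -0.84. C3, the central component that tubule cells also make (chr17:57203967-57228136, minus strand), stood at 34.9, 32.7 and 48.3 CPM with ABT-737 and 63.6, 261 and 96.7 CPM with vehicle, with vehicle replicate 4 far above the other vehicle libraries (3.57-fold, log2 fold change -1.84, SE 0.38, adjusted p = 0.0219). C4b stood at 51.9, 23.8 and 45.7 CPM with ABT-737 and 118, 187 and 78.9 CPM with vehicle (log2 fold change -1.65, SE 0.32, adjusted p = 0.0147); its reads may be shared with the near copy C4a. Cd55, a complement inhibitor on cell surfaces, had the largest positive estimate of the list, 1.91, at 1.54, 8.41 and 3.12 CPM with ABT-737 and 1.57, 0 and 1.41 CPM with vehicle, and was not called (adjusted p = 0.197). Leaving out 1 library ended the calls of C4b without ABT-737 replicate 4 or vehicle replicate 4 (-1.37 to -1.29) and C3 without ABT-737 replicates 3 or 4 (-1.76 to -1.72). Without vehicle replicate 4 the list's median was -0.51 and the log2 fold change of C3 was -1.05, still called.

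Chemokines and cytokines gave few calls. Of 17 chemokine ligands 2 were called lower, Ccl5 and Cxcl10, and the median was -0.77, or -0.33 without vehicle replicate 4. Cxcl10, an interferon-induced chemokine that draws T cells (chr5:92346639-92348889, minus strand), stood at 12.3, 17.8 and 20.2 CPM with ABT-737 and 84.8, 42.4 and 54.9 CPM with vehicle, a 3.66-fold fall (log2 fold change -1.87, SE 0.26, adjusted p = 0.00113). Of 27 cytokines and receptors 2 were called lower. Il2rg, the common gamma chain of interleukin receptors, fell from 21.99, 44.5 and 33.8 to 10.3, 9.90 and 18.2 CPM (adjusted p = 0.0369), and Il18bp, the secreted trap of interleukin-18 that interferon-gamma induces, from 19.2, 9.58 and 13.6 to 3.08, 5.94 and 3.63 CPM (adjusted p = 0.0373). Il6 had 0 counts in the 6 libraries. Of 24 tested genes of NF-kB and Toll-like receptor signalling 0 were called and 20 lay below 0, with a median of -0.36. The 2 tested members with the highest counts were Tnfaip2, at 100.2, 83.1 and 64.9 CPM with ABT-737 and 78.5, 107 and 107 CPM with vehicle, and Irak1, at 91.4, 137 and 93.97 CPM with ABT-737 and 119, 128 and 114 CPM with vehicle, and both overlapped between groups. Of 8 inflammasome genes 0 were called, although 8 of 8 lay below 0 (median -0.43, or -0.64 without vehicle replicate 5). Those with the highest counts were the adaptor Pycard, at 25.7, 31.7 and 30.1 CPM with ABT-737 and 42.01, 49.3 and 31.9 CPM with vehicle (adjusted p = 0.313), and Ninj1, at 216, 160.3 and 242 CPM with ABT-737 and 210.1, 218 and 222 CPM with vehicle. Not called with 1 library left out were Il2rg without ABT-737 replicates 3 or 4, vehicle replicates 4 or 5 or young replicates 1 or 3 (-1.36 to -1.12) and Il18bp without ABT-737 replicates 3, 4 or 5, vehicle replicates 3 or 5 or young replicate 2 (-2.10 to -1.46).

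Of 15 leukocyte adhesion genes 4 were called lower and 15 of 15 lay below 0. Itgb2, the beta chain of the leukocyte integrins (chr10:77530348-77565674, plus strand), fell from 50.7, 57.5 and 61.04 to 11.3, 21.8 and 20.2 CPM (log2 fold change -1.66, SE 0.23, adjusted p = 0.00138). Selplg, the ligand of P-selectin, fell 2.88-fold (adjusted p = 0.00823), Itga4 4.90-fold (adjusted p = 0.0364) and Ly6c2 3.01-fold (adjusted p = 0.0353), the last with near copies in its family, and without ABT-737 replicate 4 the log2 fold change of Itga4 was -3.22. Of 31 genes of immune receptor signalling 7 were called lower and 31 of 31 lay below 0. Ptprc encodes CD45, the phosphatase of all leukocytes, and stood at 11.8, 10.9 and 11.9 CPM with ABT-737 and 22.4, 30.1 and 30.5 CPM with vehicle (log2 fold change -1.25, SE 0.22, adjusted p = 0.00864). Cd274 encodes the T cell inhibitor PD-L1, which interferon-gamma induces, and fell from 11.8, 6.16 and 8.45 to 2.05, 2.47 and 1.56 CPM (adjusted p = 0.0308). At 0.923 to 4.13 CPM in young kidneys, Cd274 passed the filter through vehicle alone, which fixed its direction. Itga4, at 1.29 to 4.41 CPM in young kidneys, also needed the vehicle libraries to pass. Coro1a, Cd52 and Rac2, 3 further leukocyte genes, fell 2.63-, 2.70- and 2.82-fold (adjusted p = 0.0152, 0.0219 and 0.0246). Omission of 1 library lost the calls of Selplg without ABT-737 replicate 4 (-1.29), Itga4 without ABT-737 replicates 3 or 5, vehicle replicates 4 or 5 or young replicates 3 or 4 (-2.32 to -1.90), Ly6c2 without ABT-737 replicates 3 or 4, vehicle replicates 4 or 5 or young replicates 1, 2, 3 or 4 (-1.61 to -1.17), Ptprc without ABT-737 replicate 4 (-1.20), Cd274 without ABT-737 replicates 3, 4 or 5 or vehicle replicates 3 or 5 (-2.29 to -1.84), Coro1a without ABT-737 replicate 4 or vehicle replicates 4 or 5 (-1.30 to -1.11), Cd52 without ABT-737 replicates 3 or 4 or vehicle replicate 4 (-1.54 to -1.02) and Rac2 without ABT-737 replicates 3 or 4 or vehicle replicate 4 (-1.56 to -1.02).

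The T cell, cytotoxic, phagocyte, interferon and MHC class II sums were each lower in the 3 ABT-737 libraries than in the 3 vehicle libraries, but their order among the vehicle libraries differed. As the mean log2 level of a list relative to the vehicle mean, vehicle replicate 3 stood at 0.94 for interferon GTPases and 0.48 for MHC class II, the highest of the 3, and at -0.35 for T cells and -0.45 for cytotoxic lymphocytes, the lowest of the 3. Their part in the interferon and MHC results was not tested.

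**Figure D3:**
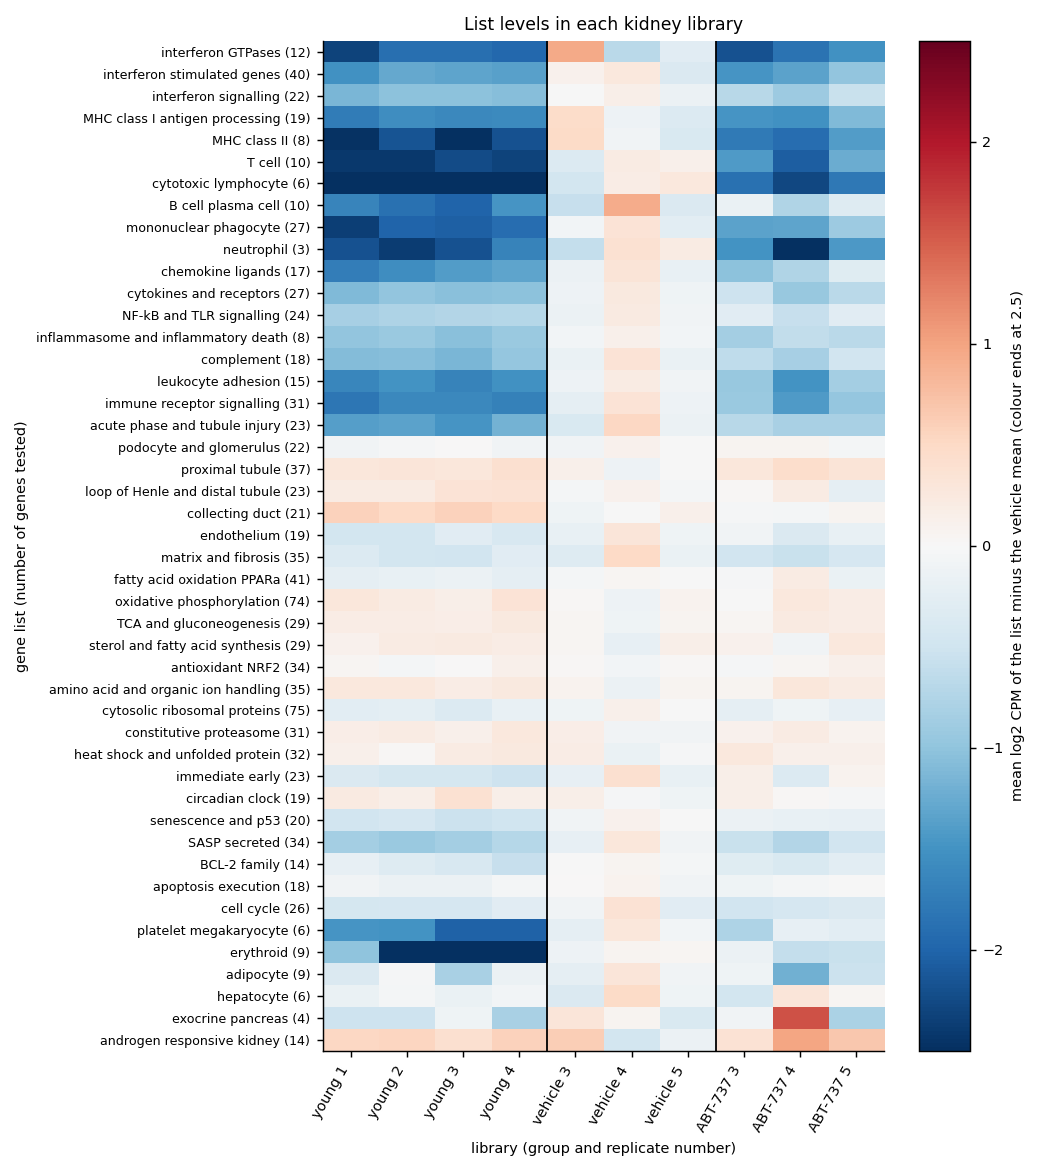
Colours give the mean log2 CPM of the tested genes of 46 lists in each of the 10 kidney libraries, minus the mean of the 3 vehicle libraries; the colour scale ends at 2.5 on either side. Most immune lists are blue in the young and ABT-737 libraries, with vehicle replicate 3 highest for interferon GTPases (0.94) and vehicle replicate 4 highest for B cells (0.94), and the rows of kidney segments and metabolism are pale.

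Markers of tubule injury and the acute phase were partly lower. Of 23 tested 3 were called lower, 23 of 23 lay below 0, and the median was -0.65, or -0.42 without vehicle replicate 4. S100a6, a calcium-binding protein, stood at 87.8, 106 and 91.9 CPM with ABT-737 and 187, 194 and 188 CPM with vehicle, with little spread (1.99-fold, log2 fold change -0.99, SE 0.15, adjusted p = 0.00339). S100a11, of the same family, stood at 67.8, 73.7 and 87.7 CPM with ABT-737 and 167, 140.2 and 134 CPM with vehicle (adjusted p = 0.0152), and Serpina3g, a protease inhibitor whose reads may be shared with its overlapping copy Serpina3f, at 14.4, 14.4 and 17.7 CPM with ABT-737 and 34.2, 76.6 and 35.2 CPM with vehicle (adjusted p = 0.0153). The tubule damage marker Lcn2 stood at 4.11, 9.40 and 14.5 CPM with ABT-737 and 19.2, 41.05 and 22.1 CPM with vehicle, with groups that did not overlap, and missed the threshold (log2 fold change -1.51, adjusted p = 0.102). Havcr1, which encodes KIM-1 and was named after its values were seen, stood at 9.25, 9.90 and 8.83 CPM with ABT-737 and 15.7, 20.5 and 5.63 CPM with vehicle and overlapped. Calls were lost for S100a11 without ABT-737 replicates 3 or 4 (-0.92 to -0.86) and Serpina3g without ABT-737 replicates 3 or 4 (-1.56).

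Some called genes belonged to no list, and those named here were chosen after their values were seen. Pigr, which carries IgA across epithelium, stood at 367, 308 and 316 CPM with ABT-737 and 937, 475 and 869.5 CPM with vehicle (adjusted p = 0.0471). The ferroxidase Cp stood at 12.8, 9.90 and 12.5 CPM with ABT-737 and 21.2, 56.1 and 27.2 CPM with vehicle (adjusted p = 0.0361) and the mitochondrial carrier Ucp2 at 44.2, 43.1 and 49.8 CPM with ABT-737 and 87.6, 103 and 68.1 CPM with vehicle (adjusted p = 0.0152). Samhd1, a triphosphohydrolase that limits viral DNA synthesis, fell from 106, 104 and 95.3 to 40.1, 32.7 and 50.9 CPM (adjusted p = 0.00138), and Trex1, a nuclease of cytosolic DNA, from 45.5, 58.8 and 34.7 to 23.1, 21.8 and 24.4 CPM (adjusted p = 0.0308). Plac8, a leukocyte gene, stood at 2.05, 1.98 and 3.12 CPM with ABT-737 and 9.42, 45.8 and 8.45 CPM with vehicle, with vehicle replicate 4 far above the rest (adjusted p = 0.0312). Leaving out 1 library ended the calls of Pigr without ABT-737 replicates 3, 4 or 5, vehicle replicates 3 or 5 or young replicates 1 or 3 (-1.28 to -1.02), Cp without ABT-737 replicates 3, 4 or 5, vehicle replicate 4 or young replicates 1 or 4 (-1.57 to -1.04), Ucp2 without ABT-737 replicates 3 or 4 or vehicle replicate 4 (-0.88 to -0.77), Trex1 without ABT-737 replicates 3, 4 or 5 or vehicle replicate 4 (-1.02 to -0.80) and Plac8 without ABT-737 replicates 3, 4 or 5 or vehicle replicate 4 (-3.25 to -1.89).

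The 15 genes higher with ABT-737 included several of the proximal tubule, which reabsorbs most filtered solute and protein. Lrp2 encodes megalin, the endocytic receptor for filtered protein (chr2:69424335-69586067, minus strand), and stood at 501, 478 and 349 CPM with ABT-737 and 261, 222 and 308 CPM with vehicle, 1.68-fold higher (log2 fold change 0.74, SE 0.17, adjusted p = 0.0439). Dab2, the adaptor that couples megalin to clathrin (chr15:6386748-6440709, plus strand), stood at 301, 356 and 255 CPM with ABT-737 and 174, 148 and 189 CPM with vehicle, 1.78-fold higher (log2 fold change 0.83, SE 0.16, adjusted p = 0.0119). Young kidneys held 401 to 512 CPM of Lrp2 and 268 to 318 CPM of Dab2. Gatm, the first enzyme of creatine synthesis, rose from 198, 179 and 221 to 393, 319 and 294 CPM (log2 fold change 0.75, SE 0.15, adjusted p = 0.0175). Slc5a12, a sodium-coupled lactate transporter of the tubule, rose from 43.6, 49.3 and 45.5 to 97.6, 131 and 64.9 CPM (log2 fold change 1.09, SE 0.22, adjusted p = 0.0175). In each of the 4, no vehicle library reached an ABT-737 library.

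Others of the 15 act in steroid, lipid and polyamine metabolism. Hsd3b2, a member of the 3-beta-hydroxysteroid dehydrogenase family with near copies, rose from 78.9, 58.1 and 58.7 to 108, 123 and 117 CPM (log2 fold change 0.82, SE 0.17, adjusted p = 0.0219). Me1, the malic enzyme that makes cytosolic NADPH, rose from 309, 187 and 194 to 362, 517 and 389 CPM (log2 fold change 0.87, SE 0.19, adjusted p = 0.0335). Lpl, lipoprotein lipase, rose from 219.9, 138 and 152 to 342, 428 and 241 CPM (log2 fold change 0.98, SE 0.23, adjusted p = 0.0468). Azin1, which spares ornithine decarboxylase from degradation, rose from 25.9, 18.5 and 24.4 to 38.02, 59.4 and 42.6 CPM (log2 fold change 1.004, SE 0.23, adjusted p = 0.0361). Odc1, ornithine decarboxylase itself, stood at 179.8, 256 and 268 CPM with ABT-737 and 153, 114 and 100.01 CPM with vehicle, and its groups did not overlap, but it missed the threshold (log2 fold change 0.93, adjusted p = 0.0679). The endosomal exchanger Clcn3 rose from 64.8, 30.8 and 38.97 to 94.01, 94.5 and 74.8 CPM (adjusted p = 0.0479).

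Socs2, a feedback inhibitor of growth hormone signalling, rose from 39.3, 27.4 and 23.5 to 73.5, 67.3 and 48.8 CPM (log2 fold change 1.06, SE 0.23, adjusted p = 0.0311), and the F-box gene Fbxo8 from 71.5, 64.99 and 73.7 to 104, 110.4 and 107 CPM (adjusted p = 0.0368). Kif20b, a mitotic kinesin, rose from 7.07, 5.47 and 4.23 to 16.4, 16.8 and 19.7 CPM (log2 fold change 1.63, SE 0.28, adjusted p = 0.0068), Gpr155, a lysosomal cholesterol sensor, from 10.99, 9.58 and 9.86 to 20.04, 25.2 and 22.3 CPM (adjusted p = 0.0153) and Tchh, trichohyalin of the hair follicle, from 7.85, 4.79 and 6.10 to 23.6, 16.3 and 10.9 CPM (adjusted p = 0.0369). Calls in this direction moved with single libraries: without vehicle replicate 4 there were 3, without vehicle replicate 5 there were 5, without ABT-737 replicate 4 there were 4 and without vehicle replicate 3 there were 193. DESeq2 called 57 genes higher, while the 6 libraries of old mice alone gave 1, and with the replicate number as a block there were 0. Not called with 1 library left out were Dab2 without ABT-737 replicate 4 or vehicle replicate 4 (0.71 to 0.74), Gatm without ABT-737 replicate 3 or vehicle replicate 4 (0.63 to 0.68), Slc5a12 without ABT-737 replicate 4 or vehicle replicate 5 (0.82 to 1.07), Gpr155 without ABT-737 replicate 4 or vehicle replicates 4 or 5 (1.05 to 1.10), Hsd3b2 without ABT-737 replicate 4 or vehicle replicates 4 or 5 (0.74 to 0.78), Azin1 without ABT-737 replicate 4, vehicle replicates 4 or 5 or young replicate 4 (0.79 to 1.03) and Socs2 without ABT-737 replicates 3 or 4, vehicle replicates 4 or 5 or young replicate 4 (0.89 to 1.05) and, in 7 to 9 of 10 omissions, Me1 without ABT-737 replicate 4, vehicle replicates 4 or 5 or young replicates 1, 2, 3 or 4 (0.70 to 0.88), Lrp2 without ABT-737 replicates 3 or 4, vehicle replicate 4 or young replicates 1, 2, 3 or 4 (0.64 to 0.75), Lpl without ABT-737 replicates 3 or 4, vehicle replicates 4 or 5 or young replicates 1, 2 or 4 (0.78 to 0.99), Tchh without ABT-737 replicates 3 or 4, vehicle replicates 4 or 5 or young replicates 1, 2, 3 or 4 (1.08 to 1.42), Clcn3 without ABT-737 replicates 3 or 4, vehicle replicates 4 or 5 or young replicates 1, 2, 3 or 4 (0.75 to 0.95) and Fbxo8 without ABT-737 replicates 3, 4 or 5, vehicle replicates 4 or 5 or young replicates 1, 2, 3 or 4 (0.56 to 0.64).

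**Figure D4:**
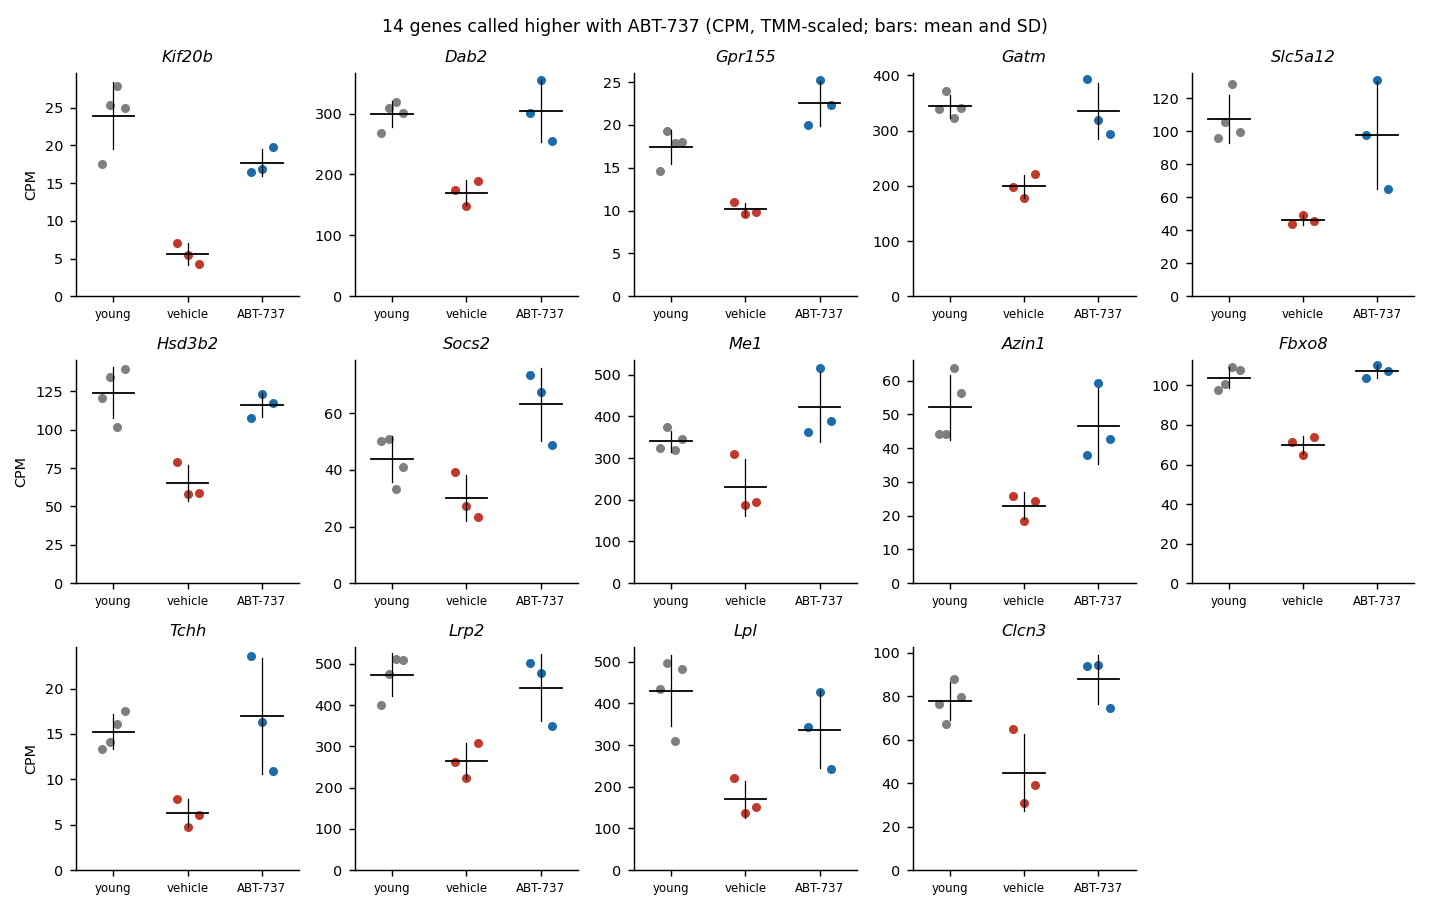
Levels in CPM (linear axes from 0) of 14 genes called higher with ABT-737, in young mice (grey), old mice given vehicle (red) and old mice given ABT-737 (blue), replicates from left to right; the horizontal bar is the mean and the vertical bar the SD. In each panel the 3 vehicle points lie below the 3 ABT-737 points, by little for Me1 (309 against 362 CPM) and Clcn3 (64.8 against 74.8 CPM).

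The proximal tubule list as a whole lay above 0. Of 37 tested 3 were called higher (Gatm, Slc5a12 and Lrp2), 33 lay above 0, and the median was 0.29, and 0.26 (without vehicle replicate 4) to 0.36 (without vehicle replicate 3) over the single-library omissions. Its summed level was 43916 to 50408 CPM with ABT-737 and 33927 to 41744 CPM with vehicle, and 41064 to 45667 CPM in young mice, so the groups of old mice did not overlap. Slc34a1, the phosphate transporter, stood at 6002, 5259.7 and 7407 CPM with ABT-737 and 5269, 4958 and 5080.2 CPM with vehicle (0.29, adjusted p = 0.445) and overlapped. The gluconeogenic enzyme Fbp1 stood at 1874, 2521 and 1909 CPM with ABT-737 and 1808, 1284 and 1596 CPM with vehicle (0.43, adjusted p = 0.237) and did not overlap. Genes that androgens raise in mouse kidney had a median of 0.57, with 12 of 14 above 0 and 0 called. Among them the anion transporter Slco1a1 stood at 137, 383 and 240.4 CPM with ABT-737 and 155, 34.9 and 24.4 CPM with vehicle, where vehicle replicate 3 overlapped the ABT-737 libraries (1.79, adjusted p = 0.0925). CPM are shares of a library, and the part of the lower immune sums in the proximal tubule level was not tested.

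The other nephron segments lay near 0 with 0 calls. The medians were 0.01 for 22 podocyte and glomerulus genes, 0.03 for 23 genes of the loop of Henle and distal tubule and -0.07 for 21 of the collecting duct. The podocyte genes Actn4 and Podxl stood at -0.31 and -0.16 on the log2 scale (adjusted p = 0.335 and 0.692). Umod, the urine protein uromodulin, stood at 3603, 4165 and 3232 CPM with ABT-737 and 3433, 4842 and 3754 CPM with vehicle (-0.13), and Fxyd2, a subunit regulator of the sodium pump, at 4313, 4349 and 4689.8 CPM with ABT-737 and 3924, 3721 and 3802 CPM with vehicle (0.22, adjusted p = 0.497). Aqp2, the vasopressin-regulated water channel, stood at 221, 245 and 641 CPM with ABT-737 and 336, 205 and 527 CPM with vehicle, so replicates differed more than groups. The collecting duct gene Scnn1a, a subunit of the epithelial sodium channel, stood at -0.40 (adjusted p = 0.263).

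Vessels and matrix gave no calls. Of 19 endothelial genes the median was -0.18, with Eng at 189, 168 and 219 CPM with ABT-737 and 204, 337 and 284 CPM with vehicle (-0.51, adjusted p = 0.197; it overlaps Fpgs on the other strand) and Plvap at -0.29. Of 35 matrix and fibrosis genes 32 lay below 0, and the median was -0.49. Mgp, a calcification inhibitor of matrix, stood at 1203, 1006 and 1041 CPM with ABT-737 and 1588, 3482 and 1207 CPM with vehicle (-0.95, adjusted p = 0.115), with vehicle replicate 4 far above the other libraries. Timp3, an inhibitor of matrix proteases, went the other way, at 1614, 1966 and 1752 CPM with ABT-737 and 1593, 1130.1 and 1396 CPM with vehicle (0.37, adjusted p = 0.293); it overlaps Syn3 on the other strand. Thbs2, a matricellular protein named after its values were seen, stood at 2.57, 1.98 and 2.60 CPM with ABT-737 and 5.89, 16.4 and 7.04 CPM with vehicle and just missed the threshold (adjusted p = 0.0526). It passed the filter through vehicle alone, with 1.93 to 3.69 CPM in young kidneys. Without vehicle replicate 4 the median of the matrix list was -0.27 and that of the endothelium 0.00.

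Metabolic lists gave few calls. Of 41 genes of fatty acid oxidation and PPARA targets 0 were called, and the median was 0.05. Etfb and Hadh stood at 0.05 and 0.25 (adjusted p = 0.925 and 0.48), and Cyp4a14, a fatty acid hydroxylase, ranged widely within vehicle, at 15.9, 8.41 and 6.75 CPM with ABT-737 and 8.64, 49.9 and 106 CPM with vehicle (adjusted p = 0.0767). Of 74 genes of oxidative phosphorylation 64 lay above 0 with a median of 0.15 and 0 calls. Cox6a1 and Atp5g3, subunits of complexes IV and V, stood at 0.20 and 0.10. Of 29 genes of the citric acid cycle and gluconeogenesis 24 lay above 0 (median 0.12), with Pck1 at 4586, 5528 and 6462 CPM with ABT-737 and 4678, 4839 and 5248 CPM with vehicle. Of 29 genes of sterol and fatty acid synthesis 1 was called, Me1, and the median was 0.05. For 35 genes of amino acid and organic ion handling the median was 0.12. Among 34 antioxidant genes 0 were called (median 0.03), with the plasma peroxidase Gpx3 at -0.07 and ferritin heavy chain Fth1 at 0.25.

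Housekeeping and stress lists were close to 0 with 0 calls. The median was -0.16 for 75 cytosolic ribosomal proteins, of which 59 lay below 0, with Rplp1 at -0.20 and Rpl8 at -0.22. It was 0.18 for 32 heat shock and unfolded protein genes, with Hspa8 at -0.05 and Hsp90ab1 at 0.24. It was 0.02 for 23 immediate early genes, including Jund at 0.15 and Gadd45g at 0.17. It was 0.05 for 19 clock genes, including Usp2 at 0.16 and Tef at 0.05.

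The targets of ABT-737 hold back the death effectors BAX and BAK. Transcripts of 14 BCL-2 family genes had a median of -0.35, or -0.15 without vehicle replicate 4, with 10 below 0 and 0 called. Bcl2 stood at 39.04, 56.4 and 39.98 CPM with ABT-737 and 58.5, 62.9 and 77.00 CPM with vehicle (log2 fold change -0.55, SE 0.20, adjusted p = 0.197), without overlap. Bcl2l1, which encodes BCL-XL, stood at 180.3, 221 and 181 CPM with ABT-737 and 231, 239 and 201 CPM with vehicle (-0.21, adjusted p = 0.559), and Mcl1, which ABT-737 does not bind well, at 114, 151 and 104 CPM with ABT-737 and 139, 166 and 113 CPM with vehicle (-0.18, adjusted p = 0.699). Of 18 genes of apoptosis execution 0 were called and the median was -0.01, with the caspase-8 inhibitor Cflar at 109.9, 62.9 and 87.7 CPM with ABT-737 and 103, 105 and 76.5 CPM with vehicle.

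Senescence genes were not called at this depth. The p53 and senescence list of 20 tested genes had a median of -0.13 and 0 calls. Cdkn1a, the cell cycle inhibitor p21 that p53 induces (chr17:29093769-29100722, plus strand), stood at 70.9, 92.05 and 61.8 CPM with ABT-737 and 86.8, 187 and 89.2 CPM with vehicle, where vehicle replicate 4 was far above the others and the groups overlapped (log2 fold change -0.67, SE 0.25, adjusted p = 0.218). Young kidneys held 26.3 to 33.9 CPM. Glb1, the lysosomal beta-galactosidase behind the senescence stain, stood at 202, 273 and 239.9 CPM with ABT-737 and 203, 163 and 189 CPM with vehicle (log2 fold change 0.36, SE 0.15, adjusted p = 0.276), and it overlaps Tmppe. The p53 target Perp stood at 0.20 (adjusted p = 0.637). Cdkn2a, which encodes p16, did not pass the expression filter and was not tested. Secreted factors of the senescence-associated secretory phenotype had a median of -0.57, with 27 of 34 below 0 and 2 called lower, Cxcl10 and Ccl5, which are also members of the chemokine list; without vehicle replicate 4 the median was -0.34.

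Of 26 cell cycle genes 1 was called in each direction, and the median was -0.44, or -0.25 without vehicle replicate 4. Ccnd2, a D-type cyclin (chr6:127125709-127151048, minus strand), fell from 64.4, 63.6 and 70.4 to 35.96, 29.7 and 23.4 CPM (2.23-fold, log2 fold change -1.16, SE 0.18, adjusted p = 0.00306), and Kif20b rose as given above.

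Markers of blood and of neighbouring tissues gave 1 call. Erythroid genes had a median of -0.30, or -0.52 without ABT-737 replicate 3, with 0 of 9 called and 9 of 9 below 0. In 3 of the 9 the groups did not overlap, against 15.2% of all genes tested. Hbb-bs stood at 4135, 3583 and 2507 CPM with ABT-737 and 3877, 4051 and 4105 CPM with vehicle, and reads may be shared with Hbb-b1. Hba-a1 did not overlap, at 1515 to 2739 CPM with ABT-737 and 2858 to 3216 CPM with vehicle. Neither did Alas2, at 24.7 to 62.2 CPM with ABT-737 and 73.0 to 95.3 CPM with vehicle. The part of blood left in the kidney in other genes was not tested. Platelet genes had a median of -0.37, which was -0.12 with ABT-737 replicate 3 left out and -0.63 with replicate 4 left out, and 0 of 6 were called, and Pf4 stood at 10.3, 18.8 and 16.1 CPM with ABT-737 and 12.96, 21.9 and 22.5 CPM with vehicle. Adipocyte genes had a median of -0.56 with 1 of 9 called, Lpl, in the direction opposite to the median. Hepatocyte genes had a median of -0.14 with 0 of 6 called, among them Ttr at 82.7, 364 and 202 CPM with ABT-737 and 106, 99.2 and 111 CPM with vehicle. The 4 tested genes of exocrine pancreas had a median of 0.74, with Cela2a at 5.65, 35.6 and 4.15 CPM with ABT-737 and 9.82, 10.9 and 6.57 CPM with vehicle, and without ABT-737 replicate 4 the median was -0.43. Adrenal cortex and muscle each had 1 tested gene, not called.

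The same drug contrast was available in liver and lung of the same table, with 3 libraries per group in each, and the labels do not say whether the 3 tissues came from the same mice. In a fit of the 30 libraries of the 3 tissues, the drug effect in kidney minus that in liver was called for 11 of 13107 genes (0.0839%), and kidney minus lung for 0 (smallest adjusted p = 0.273). At an unadjusted p under 0.05 there were 964 and 1219 genes, and DESeq2 called 27 and 12. The liver libraries were shallower than those of kidney. Levels moved in steps of 5.53 CPM in liver vehicle replicate 3, against 0.352 CPM in kidney vehicle replicate 3. The steps were 4.86, 2.70 and 3.41 CPM in the liver ABT-737 libraries, so low liver levels rest on a few counts. Of the 150 kidney genes 1 was among the 11, Lpl. Its level rose in kidney as given above, while in liver it had 0 counts in the 3 ABT-737 libraries and 0, 33.6 and 24.2 CPM with vehicle. The other leading genes were Cyp4a10, a fatty acid hydroxylase induced by PPARA (difference of log2 fold changes -3.88, SE 0.65, adjusted p = 0.0134), Serinc1 (4.61, adjusted p = 0.0134) and Sirpa, an inhibitory receptor of macrophages (2.89, adjusted p = 0.0189). For Serinc1 and Sirpa the log2 fold changes were 0.38 and -0.45 in kidney and -4.22 and -3.34 in liver. Serinc1 in liver stood at 4.86, 0 and 3.41 CPM with ABT-737 and 11.1, 59.2 and 46.5 CPM with vehicle. Over the alternative settings Serinc1 kept its call in 10 and lost it in 5, and Sirpa kept it in 8 and lost it in 7. Scaled over the 30 libraries, Cyp4a10 stood at 352, 849 and 437 CPM with ABT-737 and 424, 535 and 755 CPM with vehicle in kidney, where the groups overlapped, and at 734, 1350.5 and 348 CPM against 27.7, 75.3 and 57.6 CPM in liver, where they did not. The 11 calls moved with single libraries, to 0 without liver ABT-737 replicate 4, 2 without liver ABT-737 replicate 5 or liver vehicle replicate 4, 3 without kidney ABT-737 replicate 5 or kidney vehicle replicate 5, 6 without kidney ABT-737 replicate 4, 7 without liver ABT-737 replicate 3, 19 without liver vehicle replicate 5 and 29 without liver vehicle replicate 3. With at least 10 counts in every library there were 0. For kidney minus lung the count reached 48 without lung ABT-737 replicate 5.

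Of the 135 genes lower in kidney, 92 passed the expression filter in liver, and 91 of them lay below 0 there, with a median of -1.82, while 55.4% of the 5317 genes expressed in both tissues did so. In lung 134 passed, 121 lay below 0 and the median was -0.93, against 48.7% of 10180 genes. The filters in liver and lung also keep a gene that only vehicle expresses, which sets its direction in advance. How many of the 92 and 134 genes passed in that way was not counted. Of the 15 higher genes 7 passed in liver with 4 above 0, and 12 passed in lung with 8 above 0. The lists' medians differed in order between tissues. In kidney, liver and lung the medians of MHC class II were -1.85, -2.55 and -0.67, and those of interferon GTPases -2.05, -2.11 and -1.26. Those of matrix genes were -0.49, -1.06 and 0.33. Liver medians rest on the members that passed the filter at its lower depth, 7 of 8 for MHC class II, 6 of 12 for the GTPases and 13 of 35 for matrix. These medians were not tested against each other.

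**Figure D5:**
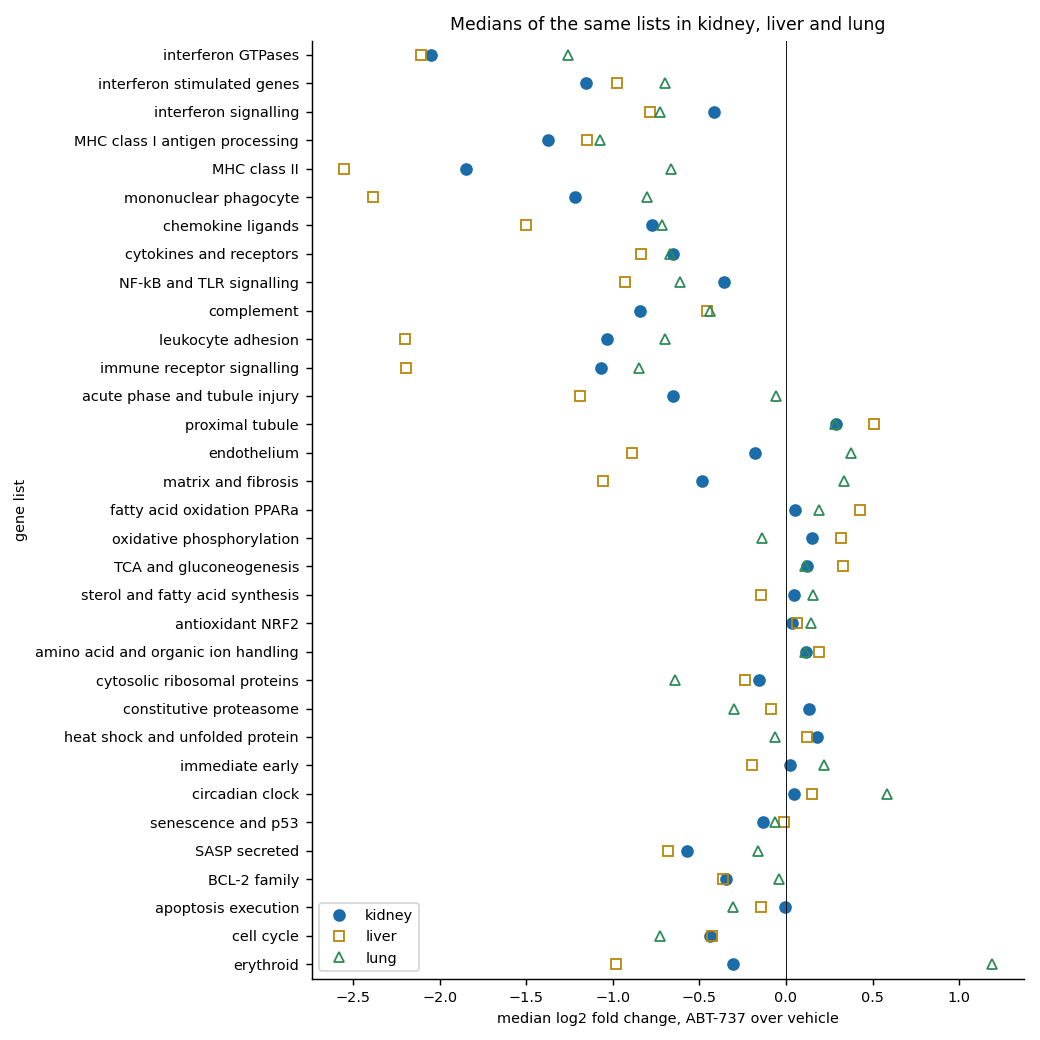
Median log2 fold change (ABT-737 over vehicle) of the 33 lists with at least 5 such members in each tissue, in kidney (filled circles), liver (open squares) and lung (open triangles), over the members that passed the expression filter. Interferon GTPases, MHC and phagocyte medians lie below 0 in the 3 tissues, while matrix (0.33) and endothelium (0.37) lie above 0 in lung and below it in kidney.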

How the data were processed

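RNA of perfused whole kidney was measured as 3′-end MARS-seq libraries. The authors deposited raw read counts per gene for kidney, liver and lung in 1 table of 24537 rows. Per the labels' processing notes, the tools were bcl2fastq, HISAT 0.1.5 and HOMER, and the build was mm10. Whether molecule barcodes were collapsed, and whether strand was used in counting, is not given in the sources used here. Each sample column of the table was matched to a library by its name.

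The deposited counts were tested with edgeR 4.0.16 (R 4.3.3), with TMM scaling, the filterByExpr filter and the quasi-likelihood F test, in 1 fit of the 10 kidney libraries (4 young, 3 vehicle, 3 ABT-737). Genes with a Benjamini-Hochberg adjusted p under 0.05 were called. Standard errors were computed from the fold change and its F value. The effects in kidney, liver and lung were compared with an interaction term over 30 libraries. The script was tested on simulated data.

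The comparison, gene lists and named genes were chosen with earlier results of these data known. Named were all genes called higher, the 12 called lower with the smallest adjusted p, up to 4 called members of each list (or, with none called, the 2 with the highest counts) and up to 4 genes of each interaction. Some genes that this rule takes are not reported here. Iigp1, Psmb8, Psmb9, B2m, Ciita, Cd55, Cd274, Slc34a1, Slco1a1, Umod, Thbs2, Cyp4a14, Cdkn1a, Bcl2, Odc1, Adgre1, Havcr1 and the called genes of no list were added after their values were seen. Where the 3 ABT-737 libraries held no more than 3 counts each, the fold is a lower bound against 3 counts per library, which covers counting error only. The kidney libraries held 1431814 to 3513311 counts, and those of liver were shallower. The study gives at least 3 mice per group for these data, and libraries were taken as separate mice. Alternatives were DESeq2 1.42.0, its size factors, 2 other count filters, a fold threshold, the old libraries alone, the replicate number as a block and the omission of single libraries.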

Additional observations from a re-analysis of the deposited data

Results flagged for a closer look

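In 10 named genes, 1 of the 4 young kidney libraries stood apart from the other three, by a gap over the range of 0.876 for Gbp4, 0.955 for H2-D1, 0.936 for Serpina3g, 0.911 for Aqp2, 0.924 for Plvap, 0.885 for Cox6a1, 0.901 for Pf4, 0.936 for Hbb-bs, 0.855 for Cp and 0.881 for Sirpa. Chance flags about 1 in 20 groups, and 138 genes were examined. The ABT-737 effect differed between kidney and liver, by the interaction term, in Cyp4a10 (difference of log2 fold changes -3.88), Serinc1 (4.61), Lpl (9.41) and Sirpa (2.89). For Lpl the liver libraries with ABT-737 held 0 counts, so the size depends on the prior count of the fit and is no bound.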

How the results depend on the processing

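The 150 called genes (15 higher, 135 lower) became 229 (57 higher) with DESeq2, 144 of them among the 150, and 368 (97 higher, 271 lower) with no filter beyond a summed count of 1, all 150 among them. At least 10 counts in every library left 101, 9 higher, with fewer genes tested. An absolute log2 fold change over 1 left 123, 6 higher. The 6 libraries of old mice alone gave 69, 1 higher and 68 lower. Over single-library omissions the total ran from 57 (without ABT-737 replicate 4) to 471 (without vehicle replicate 3), the higher genes from 3 (without vehicle replicate 4) to 193 (without vehicle replicate 3) and the lower genes from 53 (without ABT-737 replicate 4) to 278 (without vehicle replicate 3). The kidney minus liver count of 11 became 27 with DESeq2, 0 with at least 10 counts in every library, 3 with the old libraries of both tissues alone, and 0 to 29 over single-library omissions. The kidney minus lung count of 0 became 12 with DESeq2 and 0 to 48 over single-library omissions. The cause was not tested where the setting does not show it. Of 79 called genes named, 36 were called in every single-library omission. No called gene among those named changed sign, while uncalled ones did, among them Aqp2 (0.05, and -0.61 without ABT-737 replicate 5), Cela2a (0.76, and -0.87 without ABT-737 replicate 4) and Hsp90ab1 (0.24, and -0.09 without ABT-737 replicate 3).

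Replicate numbers are shared by the groups, but the deviations of same-numbered libraries from their group means had correlations of -0.17, -0.21 and 0.01, no library correlated best with its own number, and the labels give no shared animal, so the numbers were not taken as pairs. With the replicate number as a block, 52 genes were called, 0 higher and 52 lower, 51 of them among the 150, and 4 for kidney minus liver. At 1431814 to 3513311 counts per kidney library, genes below about 1 CPM rest on a few counts.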
